A study of Mus musculus with 4 samples.

Results

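*Spp1* and 9 further genes of lipid-handling macrophages were followed in mouse testicular organoids (TOs) and in mouse testes. The set was *Spp1*, *Gpnmb*, *Trem2*, *Fabp5*, *Lpl*, *Clec4e*, *St18*, *Lgals3*, *Cd9* and *Lyz2*, 10 of the 32285 genes counted, and all 10 were found by their symbols. It was chosen by the measured levels of *Spp1*, *St18* and *Clec4e*, which were higher in TO macrophages, to ask whether the other genes of this programme were also higher there. These 3 genes, and *Lyz2*, whose difference in macrophages was also known beforehand, are therefore described without a test in macrophages. *Trem2*, *Fabp5*, *Lpl*, *Lgals3* and *Cd9* were tested there, and *Gpnmb* was fitted but is given by its counts.

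TOs were spheroids grown from the dissociated cells of whole testes of ICR mice aged 5 to 6 days, so that germ cells, Sertoli cells, Leydig cells and macrophages all came from the pups and no cells were added. Single-cell RNA sequencing (scRNA-seq, 10x Genomics 3′ chemistry) of unsorted cells gave 2 TO libraries and 2 libraries of 28-day-old mouse testes. No genetic change was named for either group. The study's methods name ICR mice for its mouse work except chimeric TOs, and no separate strain for the testes. TOs were embedded in extracellular matrix, later removed. Their medium held serum replacement, follicle-stimulating hormone, testosterone and antioxidants. The testes were not cultured, so effects of this culture cannot be told apart from other differences between the groups. The design text gives the TOs as day 28 and the dissociation protocol as day 21, and the age in the study's methods, day 28, was used. Neither source gives the number of animals per testis library or ties a TO library to one of the culture batches, so p-values measure the spread between these libraries only.

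Macrophages that take up much lipid, in fat tissue, in artery walls and around damaged myelin, are known for a shared set of genes. *Trem2* encodes a surface receptor for lipids and lipoproteins that signals through the adaptor encoded by *Tyrobp*. *Lpl* encodes the lipase that frees fatty acids from triglycerides, *Fabp5* encodes a carrier of fatty acids in the cytosol, *Gpnmb* and *Lgals3* encode a lysosome-associated glycoprotein and a galectin, and *Spp1* encodes the secreted ligand osteopontin. In the testis, macrophages lie in the interstitium beside Leydig cells and around the tubules.

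After quality control, 9802 and 8713 TO cells and 9867 and 9516 testicular cells remained, with 0.221% to 0.356% of the barcodes of the smaller library shared between any 2 libraries. A single cluster held the macrophages, 270 and 695 cells in TO 1 and TO 2 and 232 and 148 cells in testis 1 and testis 2, and no macrophage barcode was shared. All 6 macrophage markers (*Ptprc*, *Cd68*, *Cd74*, *C1qa*, *Adgre1* and *Csf1r*) were detected in this cluster, none of them was called between TOs and testes, and their summed level was 5220, 5914, 6993 and 6996 UMIs per 1000000 UMIs of the macrophage sum (CPM) in the 4 libraries. None of the 10 genes took part in the clustering or the naming. Macrophages held a median of 6326.5 and 5981 UMIs in TOs and 3069.5 and 4283.5 in testes, and the summed counts were 1983198, 4470882, 718607 and 624329 UMIs.

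Transcripts of other cells were present in the macrophage sums at unequal levels. The 6 spermatid markers summed to 2375 and 3176 CPM in testis macrophages and to 2.02 and 3.36 CPM in TO macrophages. The markers of other somatic cells (*Acta2*, *Myh11*, *Dcn*, *Pdgfra*, *Col1a1*, *Tcf21*) summed to 295 and 187 CPM in TO macrophages and to 36.2 and 14.4 CPM in testis macrophages. Sertoli markers summed to 297 and 114 CPM against 47.3 and 43.2 CPM, with *Aard* called higher in TOs, and Leydig markers to 217 and 55.5 CPM against 37.6 and 51.3 CPM, with *Hsd3b1* called higher. *Hsd3b1* passed the filter on low counts through TOs alone. Of the markers of other blood cells, those of monocytes summed to 20.7, 26.2, 80.7 and 99.3 CPM, most of it *Ccr2* in testes, those of neutrophils summed to 22.7, 36.9, 6.96 and 14.4 CPM, those of dendritic cells to 6.56, 6.26, 29.2 and 14.4 CPM, and those of T and NK cells to at most 0.504 CPM in TOs and 19.5 CPM in testes. No UMI of the 4 mast cell markers was found.

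To show the sequences in front of the genes, the 250 bases upstream of the annotated start are given for 3 members: *Spp1*, the ligand that gave the set its name; *Gpnmb*, which had no UMI in testis macrophages; and *Trem2*, the lipid receptor. They were read from RefSeq on GRCm38.p6, on the + strand, at chr5:104434861-104435110 for the first of 2 annotated starts of *Spp1*, at chr6:49036268-49036517 for *Gpnmb* and at chr17:48346151-48346400 for *Trem2*. Capitals mark matches, on either strand, to GAGGAAG (the core bound by the myeloid factor PU.1) and to TGANTCA. The latter is looser than the AP-1 element, which has C or G at its centre, because it allows any base there.
Spp1: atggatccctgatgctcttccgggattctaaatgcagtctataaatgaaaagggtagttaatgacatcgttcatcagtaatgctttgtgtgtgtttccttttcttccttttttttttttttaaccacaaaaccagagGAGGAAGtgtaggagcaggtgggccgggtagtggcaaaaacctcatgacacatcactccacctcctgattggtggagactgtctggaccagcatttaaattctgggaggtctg
Gpnmb: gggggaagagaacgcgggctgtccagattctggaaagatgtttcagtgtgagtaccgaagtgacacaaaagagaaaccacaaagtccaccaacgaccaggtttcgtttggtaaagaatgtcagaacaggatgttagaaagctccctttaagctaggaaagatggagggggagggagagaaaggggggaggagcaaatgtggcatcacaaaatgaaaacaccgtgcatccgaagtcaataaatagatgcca
Trem2: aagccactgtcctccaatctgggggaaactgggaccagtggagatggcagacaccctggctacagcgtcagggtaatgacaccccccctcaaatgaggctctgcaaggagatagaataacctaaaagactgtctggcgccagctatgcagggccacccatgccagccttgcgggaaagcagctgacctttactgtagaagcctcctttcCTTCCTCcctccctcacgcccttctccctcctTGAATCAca

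Sequences were at hand for 7 of the 10 genes, and *Fabp5*, *Lpl* and *St18* were not matched. GAGGAAG was matched in front of *Spp1* (bases -113 to -107 from the start) and *Trem2* (-41 to -35), and 10.6% of all 32851 windows of this length hold it. TGANTCA was matched in front of *Trem2* (-9 to -3) and is held by 6.75% of windows. The match was TGAATCA, whose central A is not that of the AP-1 element. CATGTG, a core of the MITF and TFE family, was matched in front of *Cd9* only (12.3% of windows), and CACGTG, the core of the lysosomal gene element, in front of none of the 7 (6.02% of windows). These matches describe letters in the windows and are not shown to be bound.

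*Spp1* reached 3700 and 701 CPM in the macrophages of TO 1 and TO 2, against 5.57 and 38.4 CPM in those of testis 1 and testis 2 (7337, 3134, 4 and 24 UMIs). The groups did not overlap, and the lower TO library stood 18.2-fold above the higher testis library, but the 2 TO libraries differed by 5.28-fold. The fitted log2 fold change was 6.89 (SE 0.90) and was 5.28 without TO 1, 7.67 without TO 2 and 8.73 without testis 2, with the value without testis 1 between them. *Spp1* was spread unevenly over cells: the 27 of 270 and 70 of 695 macrophages with most *Spp1* held 77.0% and 83.6% of its UMIs, and 1 cell alone held 10.2% and 14.8%.

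*Clec4e*, which encodes Mincle, a C-type lectin receptor for glycolipids, was at 108 and 47.9 CPM in TO macrophages. In testis macrophages it was at 1.39 and 0 CPM, which rests on 1 UMI, and the pooled ratio was 89.3 (exact 95% counting interval 15.9–3534). *St18*, which encodes a zinc finger transcription factor best known from neural cells, was at 102 and 360 CPM in TO macrophages and at 2.78 and 3.20 CPM in testis macrophages (4 UMIs in all), with a pooled ratio of 94.2 (36.7–346). In both genes the TO libraries lay above the testis libraries, but they were in opposite order: *Clec4e* was 2.26-fold higher in TO 1 and *St18* was 3.53-fold higher in TO 2. *Lyz2*, the macrophage lysozyme, was at 27373 and 23052 CPM in TO macrophages and at 5587 and 4813 CPM in testis macrophages, a log2 fold change of 2.49 (SE 0.28). Its close paralog *Lyz1*, with which reads may be shared, was at 573 and 237 CPM against 2.78 and 11.2 CPM.

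**Figure D1:**
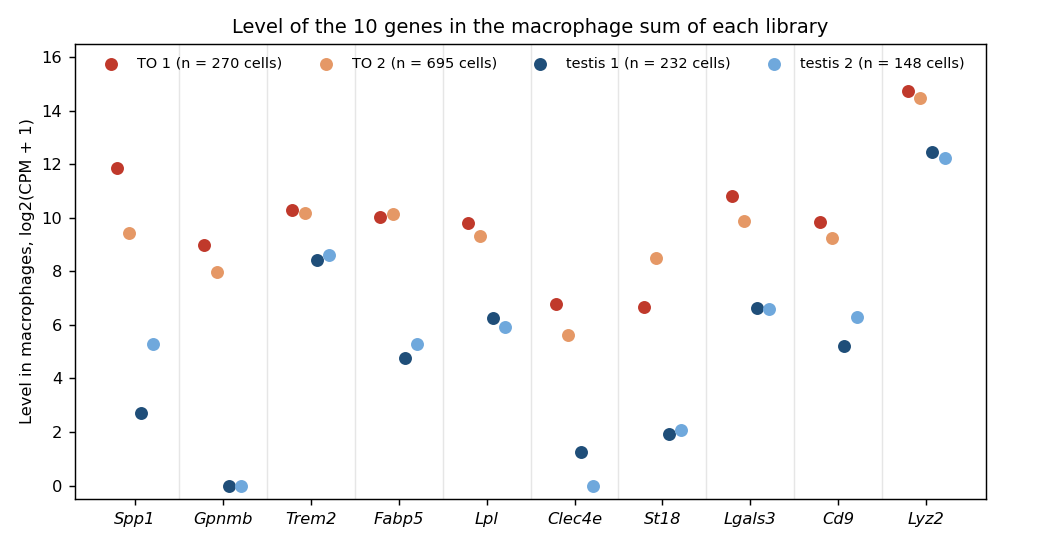
Level of each gene in the macrophage sum of each library, as log2(CPM + 1) on the vertical axis, with 1 point per library and no averaging. For each of the 10 genes, both TO points lie above both testis points. For *Spp1*, *St18* and *Clec4e*, which chose the set, and for *Lyz2*, this was known beforehand. The share of all genes separated in this way was not counted, so the separation is a description only. The gap is widest for *Gpnmb*, at 0 in both testis libraries, and narrowest for *Trem2* and *Lyz2*.

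*Spp1*, *St18*, *Clec4e* and *Lyz2* were set aside here. Of the other members, 5 passed the filter on low counts in both conditions (*Trem2*, *Fabp5*, *Lpl*, *Lgals3* and *Cd9*). All 5 of 5 were higher in TO macrophages by edgeR's quasi-likelihood test on the 4 sums, with Benjamini-Hochberg adjustment over 10805 genes. A gene was called where the adjusted p was under 0.01 and the log2 fold change over 1 in size. The set and the tests were chosen with earlier results of these data known, which limits this count. Among all genes tested, 3.35% were called higher in TOs and 16.3% lower. *Gpnmb* passed the filter through the TO libraries alone, so its values are given without a test. The median log2 fold change of all genes tested was 0.06. The calls of all 5 were lost (each at an adjusted p = 0.655 by edgeR) when a background scaled from the spermatid markers was subtracted from the sums, an estimate that rests on 4 and 15 UMIs in the TO libraries and left no gene called. The log2 fold changes were then larger, at 6.47 for *Fabp5*, 4.70 for *Cd9*, 4.53 for *Lgals3*, 4.11 for *Lpl* and 2.30 for *Trem2*. With a background scaled from the markers of all other 7 types, an alternative added after the data were seen, *Trem2* alone of the 5 was not called (log2 fold change 1.61, adjusted p = 0.0148).

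*Trem2* showed the smallest difference. It was at 1245 and 1164 CPM in TO macrophages and at 345 and 394 CPM in testis macrophages, so that testis macrophages also held this receptor. The 2 libraries of each condition were close, with means of 1204.5 ± 57.9 and 370 ± 34.6 CPM (SD, n = 2 libraries). The log2 fold change was 1.91 (SE 0.28, edgeR adjusted p = 0.000256).

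Both genes of fatty acid supply were higher in TOs. *Fabp5* was at 1056 and 1139 CPM in TO macrophages and at 26.4 and 38.4 CPM in testis macrophages, a log2 fold change of 5.30 (SE 0.35, edgeR adjusted p = 3.11e-06). *Lpl* was at 900 and 648 CPM against 75.1 and 59.3 CPM, a log2 fold change of 3.73 (SE 0.33, edgeR adjusted p = 8.3e-06). The lower TO library was 27.5-fold above the higher testis library for *Fabp5* and 8.63-fold for *Lpl*.

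*Gpnmb*, whose product sits in lysosomal and surface membranes, had 1010 and 1130 UMIs in TO macrophages (509 and 253 CPM) and 0 in testis macrophages. Set against a floor of 3 counts over the testis group, it was at least 148-fold higher in TOs. Its fitted fold depends on the prior count and is not given as a size.

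*Lgals3*, a lectin that gathers at damaged lysosomes, was at 1819 and 943 CPM in TO macrophages and at 97.4 and 96.1 CPM in testis macrophages (log2 fold change 4.04, SE 0.38, edgeR adjusted p = 1.26e-05). *Cd9*, a tetraspanin of the cell surface, was at 909 and 607 CPM against 36.2 and 76.9 CPM (log2 fold change 3.96, SE 0.41, edgeR adjusted p = 2.35e-05). TO 1 was above TO 2 for both genes, by less than the difference between conditions. When single libraries were left out, each of these 5 members was still called in 4 of 4 fits, with the lowest log2 fold changes at 1.78 for *Trem2*, 5.00 for *Fabp5*, 3.49 for *Lpl*, 3.53 for *Lgals3* and 3.47 for *Cd9*.

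Next, the share of macrophages with at least 1 UMI was compared after each cell was thinned to 1500 UMIs, because depth differed between libraries. Thinning left out 1 cell of each TO library and no testis cell. With 2 libraries against 2, the exact two-sided permutation test cannot go below p = 0.33 and cannot decide a difference. *Trem2*, *Fabp5*, *Lpl*, *Lgals3* and *Cd9* each gave this value, and the shares of the other members are described without it. Intervals (95%, Clopper-Pearson) cover counting error only.

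*Trem2* was found in 77.7% (72.2–82.5) and 77.1% (73.8–80.2) of TO macrophages and in 32.3% (26.4–38.8) and 35.1% (27.5–43.4) of testis macrophages. *Cd9* was found in 56.5% and 43.8% against 5.60% and 10.8%, *Lgals3* in 55.0% and 42.8% against 11.6% and 15.5%, and *Lpl* in 50.9% and 42.7% against 10.3% and 7.43%. *Fabp5* was found in 26.4% and 26.8% of TO macrophages against 2.16% and 5.41%. For *Gpnmb* the TO shares were 12.6% and 10.8%, and 0 of 232 and 0 of 148 testis cells allow shares of up to 1.29% and 2.03%.

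Of the genes that chose the set, *Spp1* was found in 50.9% and 23.3% of TO macrophages and in 1.29% and 6.08% of testis macrophages. *St18* was found in 14.1% and 31.0% of TO macrophages, and *Clec4e* in 12.3% and 3.89%, with at most 2 testis cells for either gene in a library. *Lyz2* was found in every TO macrophage and in 94.4% and 95.9% of testis macrophages. Without thinning, the TO shares were higher for each gene but *Lyz2*, for example 68.5% and 38.7% for *Spp1*.

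Free RNA can give such UMIs in any cell, so the same shares were read in Sertoli cells and spermatocytes of the same library, which should lack macrophage genes. In TO Sertoli cells (median 10074 and 11342 UMIs, thinned alike), *Trem2* was found in 1.01% and 1.11%, *Gpnmb* in 0.539% and 0 of 718 cells, *Lgals3* in 1.48% and 0.696% and *Spp1* in 2.90% and 0.279%. *Lyz2* was found in 5.46% and 5.57% of them. In testis 1, *Spp1* was found in 3.66% of Sertoli cells, above its share in the macrophages of that library, but *Spp1* was at 31.1 CPM in those Sertoli cells against 0 to 2.82 CPM in the other non-macrophage types of testis 1, so they are no measure of its background. In the spermatocytes of testis 1 it was found in 0.108%, and the share in macrophages rests on 3 cells. *Fabp5* was found in 36.1% and 44.0% of TO Sertoli cells and in 41.9% and 36.1% of testis Sertoli cells. In spermatocytes it was found in 9.18% and 3.59% in TOs and in 2.06% and 0.923% in testes.

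**Figure D2:**
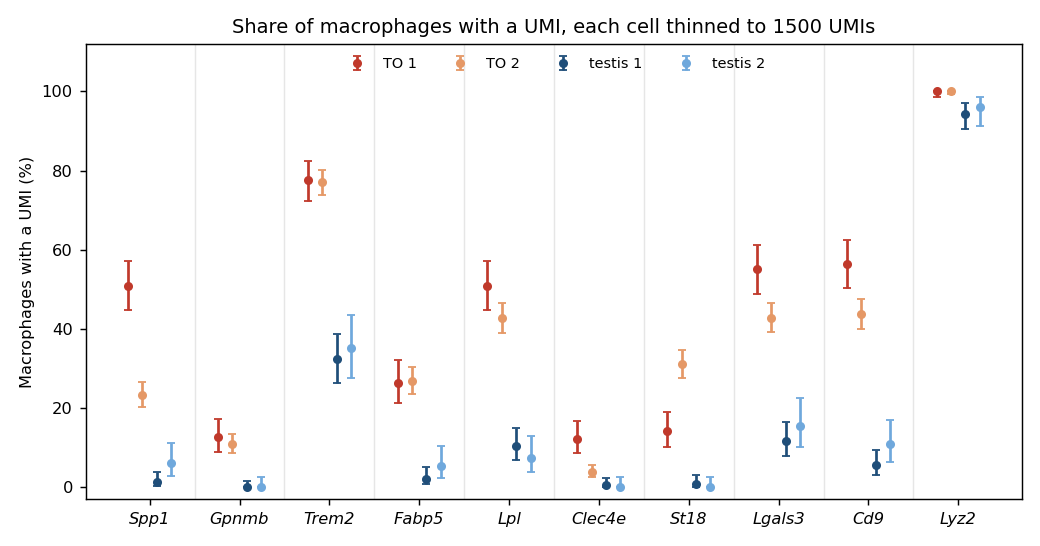
Percent of macrophages with at least 1 UMI of each gene after thinning to 1500 UMIs per cell, with 1 point per library and 95% Clopper-Pearson intervals as bars. The TO intervals lie above the testis intervals for *Trem2*, *Lpl*, *Lgals3*, *Cd9* and *Fabp5*, while for *Clec4e* the TO 2 share of 3.89% comes close to the testis shares.

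Single macrophages of TOs held several of the genes at once. At 1500 UMIs per cell, the median TO macrophage had a UMI of 4 of the 10 genes in both libraries, against 1 and 2 in testis 1 and testis 2. At least 5 genes were found in 45.4% and 36.5% of TO macrophages (122 of 269 and 253 of 694 cells) and in 0 of 232 and 0 of 148 testis macrophages. This count includes the genes whose levels chose the set and is a description. Of *Trem2*, *Fabp5*, *Lpl*, *Lgals3* and *Cd9* alone, at least 3 were found in 51.3% and 43.4% of TO macrophages and in 1.29% and 2.03% of testis macrophages (3 cells each), and none of the 5 was found in 1.86%, 6.92%, 51.3% and 41.2% of macrophages in the order of libraries.

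**Figure D3:**
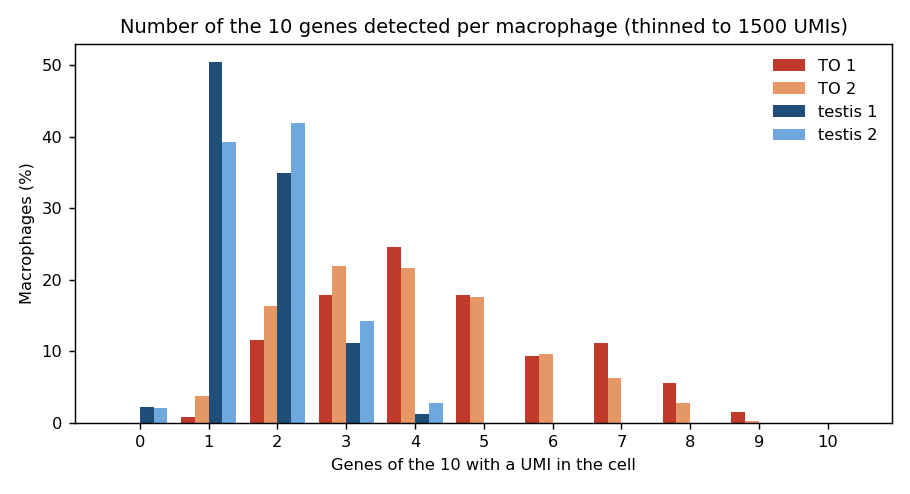
Percent of macrophages, on the vertical axis, by the number of the 10 genes with a UMI in the cell after thinning to 1500 UMIs, on the horizontal axis, for each library. Testis macrophages held 0 to 4 of the genes and TO macrophages up to 9.

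Within each TO library, cells with a UMI of *Spp1* also held the other genes to different degrees. *Cd9* was found in 70.1% of *Spp1*-positive and 42.4% of *Spp1*-negative macrophages of TO 1, and in 69.8% and 35.9% of those of TO 2. *Lgals3* was found in 66.4% and 43.2%, and in 59.9% and 37.6%. *Fabp5* was found in 33.6% and 18.9%, and in 42.0% and 22.2%, and *Gpnmb* in 17.5% and 7.58%, and in 19.8% and 8.08%. *Trem2* differed little, with 78.1% and 77.3% in TO 1 and 80.9% and 75.9% in TO 2, and so did *St18*, with 12.4% and 15.9%, and 30.2% and 31.2%. These shares describe cells of 2 libraries and were not tested.

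Macrophages were clustered again without the 10 genes into 7 sub-clusters, which are given by number and leading genes. The groups differed in their shares. Sub-cluster 0 held 27.8% and 31.5% of TO macrophages and 70.3% and 64.9% of testis macrophages, and sub-cluster 1 held 31.1% and 23.2% against 0.862% and 0%. Sub-cluster 3, led by *Mmp12*, *Atp6v0d2*, *Fabp4*, *Itgax* and *Ctsl*, held 36 and 111 TO macrophages, and its 2 testis cells (1 per library) were too few for a level. It had UMIs of all 6 macrophage markers in both TO libraries, and its cells were deeper, with a median of 8693 and 7338 UMIs against 6174.5 and 5768 in the other TO macrophages.

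*Gpnmb* and *Fabp5* lay mostly in sub-cluster 3. With 17.1% and 20.2% of all macrophage UMIs of TO 1 and TO 2, it held 90.5% and 81.8% of the *Gpnmb* UMIs and 78.2% and 79.3% of the *Fabp5* UMIs. *Gpnmb* was at 2701 and 1022 CPM there against 58.4 and 57.8 CPM in the other macrophages, and *Fabp5* was at 4844 and 4469 CPM against 277 and 295 CPM.

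*Lgals3* followed, with 60.0% and 60.3% of its UMIs from sub-cluster 3 (6402 and 2810 CPM there). *Cd9* had 39.5% and 36.4% and *Lpl* 39.0% and 28.1% of their UMIs in it. *Trem2* was spread more evenly: it was at 2119 and 1506 CPM in sub-cluster 3 and at 1066 and 1077 CPM in the other macrophages. *Lyz2* was at 30661 and 29857 CPM against 26697 and 21327 CPM.

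For *Spp1* the 2 TO libraries differed. Sub-cluster 3 held 29.7% of its UMIs in TO 1 and 58.3% in TO 2. In TO 1, *Spp1* was also at 4371 CPM in sub-cluster 1, led by the chemokine genes *Ccl4* and *Cxcl2*, and at 6263 CPM in sub-cluster 4, led by histone and mitosis genes, against 645 and 261 CPM in TO 2. In sub-cluster 0, led by *Cd209f*, *Vsig4* and *F13a1*, it was lowest, at 359 and 108 CPM. *St18* did not follow sub-cluster 3 (145 and 399 CPM there, 127 and 443 CPM in sub-cluster 0), and *Clec4e* was at 41.4 and 88.5 CPM there against 122 and 37.6 CPM in the other macrophages.

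**Figure D4:**
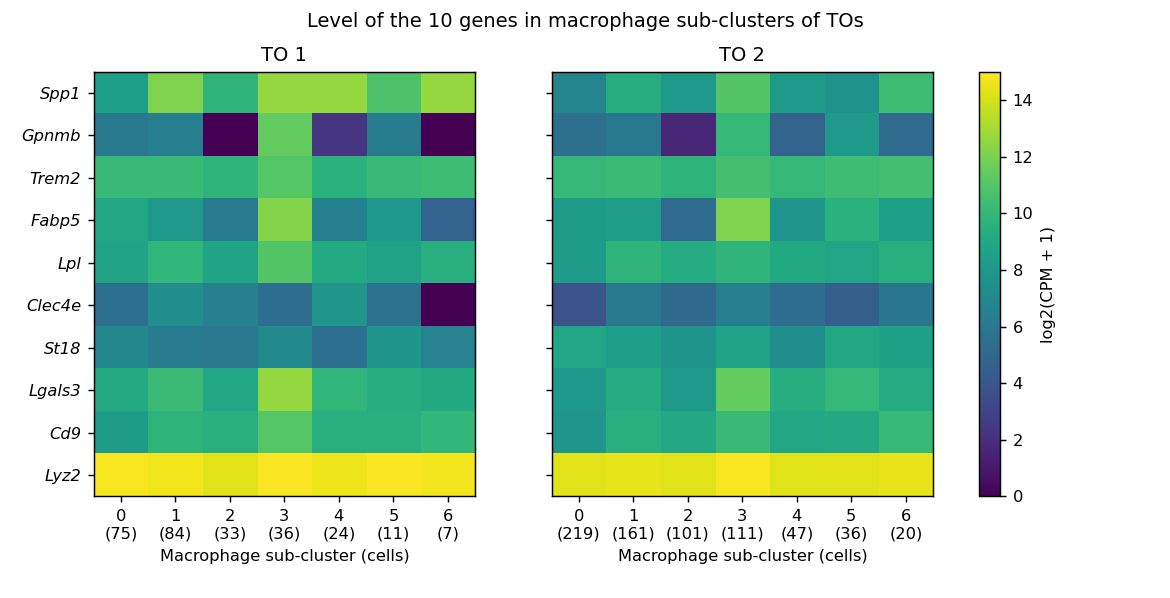
Level of each gene in the 7 macrophage sub-clusters of TO 1 and TO 2, coloured by log2(CPM + 1), with the number of cells under each sub-cluster. *Gpnmb*, *Fabp5* and *Lgals3* peak in sub-cluster 3 in both libraries, *Spp1* is high in several sub-clusters of TO 1, and *Lyz2* and *Trem2* vary little.

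Leaving out sub-cluster 3, an alternative added after the data were seen, kept *Trem2*, *Fabp5*, *Lpl*, *Lgals3* and *Cd9* called by edgeR, with smaller log2 fold changes for *Fabp5* (3.45, adjusted p = 1.61e-05), *Lgals3* (3.01, adjusted p = 0.00011) and *Cd9* (3.51, adjusted p = 7.23e-05). *Lpl* (3.38) and *Trem2* (1.72) moved less. Within sub-cluster 0 alone, which held 75, 219, 163 and 96 cells of the 4 libraries, the edgeR log2 fold changes were 5.15 for *Cd9* (adjusted p = 3.07e-07), 3.73 for *Fabp5* (1.35e-06), 2.81 for *Lpl* (6.3e-06), 2.53 for *Lgals3* (6.3e-05) and 1.43 for *Trem2* (0.00107), and *Gpnmb* was again at 0 in testes. Sub-cluster 5, whose leading genes *C7*, *Dcn* and *Col3a1* are stromal, could be left out without a change in the calls of these 5 genes. The count of all genes called went from 2122 to 2102.

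Outside macrophages, the 10 genes differed in where they were found. *Clec4e*, *Gpnmb*, *Trem2* and *Lpl* stayed at or below 20.2 CPM in each of the other 7 cell types and each library. *Fabp5* and *Cd9* were also expressed in other somatic types. *Lyz2* was low outside macrophages, but at 29.5 to 92.9 CPM in every other TO type against at most 4.99 CPM in testes. The cluster named endothelial had all 6 of its markers, but its name was given over the libraries together and not for TOs alone. No test here rests on its cells. *Cd9* was at 1241 and 1509 CPM there in TOs, above its level in TO macrophages, and at 420 and 563 CPM in testes.

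*Fabp5* was higher in TOs in macrophages but was not called in the 3 other types tested. In the cluster named endothelial, which was not tested, it was at 98.4 and 94.4 CPM in TOs and at 9.14 and 20.3 CPM in testes, on 6 and 12 UMIs in the latter. Germ cells were not tested either. There *Fabp5* was at 209 and 62.3 CPM in TO spermatids against 5.85 and 7.47 CPM in testes. It was at 51.6 and 23.7 CPM against 6.64 and 3.86 CPM in spermatocytes, and at 39.4 and 25.3 CPM against 18.7 and 19.5 CPM in spermatogonia. In Sertoli cells it was at 368 and 406 CPM in TOs and at 449 and 416 CPM in testes (log2 fold change -0.06, SE 0.18). In Leydig cells it was at 368, 222, 121 and 415 CPM in the same order of libraries (0.03, SE 0.57), and in other somatic cells at 85.5 and 91.6 CPM in TOs and at most 264 CPM in testes (-0.98, SE 0.35, edgeR adjusted p = 0.0633). The interaction of condition and cell type, fitted over 17056 genes with the library as a block, was 5.58 against Sertoli cells (SE 0.57, edgeR adjusted p = 7.72e-05), 5.26 against Leydig cells (SE 0.57, adjusted p = 0.000156) and 6.67 against other somatic cells (SE 0.58, adjusted p = 1.88e-05). Of all genes, 1.72%, 2.27% and 3% had such a difference above that in Sertoli, Leydig and other somatic cells.

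*Cd9* differed between types. In other somatic cells it was at 138 and 106 CPM in TOs and at 235 and 612 CPM in testes (log2 fold change -1.68, edgeR adjusted p = 0.0183, not called), while in Leydig cells it was at 180 and 135 CPM against 47.7 and 34.7 CPM and was called higher in TOs (1.86, SE 0.27, adjusted p = 0.0027). In Sertoli cells it was at 40.6 and 41.1 CPM against 2.33 and 0 CPM. The difference in macrophages was above that in other somatic cells by 6.03 (SE 0.51, edgeR adjusted p = 1.69e-05), was above that in Leydig cells by 2.36 without passing the threshold (adjusted p = 0.0119), and was -0.58 (SE 0.94) against Sertoli cells. These types pooled clusters whose mix differed between groups. An other somatic cluster led by *Rgs5* held 63 of 5266 and 74 of 4943 such cells in TOs, and 217 of 1283 and 144 of 847 in testes. A Leydig cluster led by *Adh1* held 276 and 307 cells in TOs and 5 and 6 in testes. What part of the differences came from this mix was not tested.

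*Lpl* and *Lgals3* were low outside macrophages. *Lpl* had 401 UMIs in TO Sertoli cells (20.2 and 15.9 CPM) and 0 in testis Sertoli cells, at least 23.1-fold higher against the floor of 3 counts over the group. *Lgals3* had 140 UMIs against 1 in Sertoli cells, a pooled ratio of 24.2 (exact 95% counting interval 4.28–963), and was at 39.5 and 34.0 CPM in TO and 10.8 and 33.2 CPM in testis other somatic cells. Their differences in macrophages were above those in other somatic cells by 2.70 (*Lpl*, SE 0.42, edgeR adjusted p = 0.00163) and 3.40 (*Lgals3*, SE 0.49, adjusted p = 0.000893). Without the library block, *Lgals3* was at 3.61 and no longer called (adjusted p = 0.0149). Against Sertoli cells *Lpl* was at -6.09, a fit that rests on no testis UMI there and was not called (adjusted p = 0.0271), and *Lgals3* was at -0.30. Against Leydig cells they were at 1.43 and 0.22, and neither was called. For *Trem2*, no difference from another type was called, and the interaction with other somatic cells was -0.20 (SE 0.88, adjusted p = 0.944), with 3 UMIs in testis other somatic cells.

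By the test within each type, 4 of the 7 members tested in Sertoli cells were called higher in TOs (*Cd9*, *Lpl*, *Lgals3* and *Lyz2*, against 7.81% of genes), 2 of 8 in Leydig cells (*Cd9* and *Lyz2*, against 2.02%) and 1 of 8 in other somatic cells (*Lyz2*, against 2.81%). The 4 genes called in Sertoli cells passed the count filter through TOs alone, so this count is no support. The level in TO Sertoli cells was 0.120% and 0.128% of that in macrophages for *Lyz2*, 0.410% and 0.503% for *Lgals3*, 2.24% and 2.45% for *Lpl*, 4.47% and 6.76% for *Cd9* and 34.8% and 35.6% for *Fabp5*. It was 0.393% and 0.501% for *Trem2*, 0.435% and 0.387% for *Spp1* and 0.446% and 0.107% for *Gpnmb*. For *Clec4e* it was 0% and 0.283%, and for *St18* 0.0697% and 0.0754%. What part of these levels came from free RNA was not tested.

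**Figure D5:**
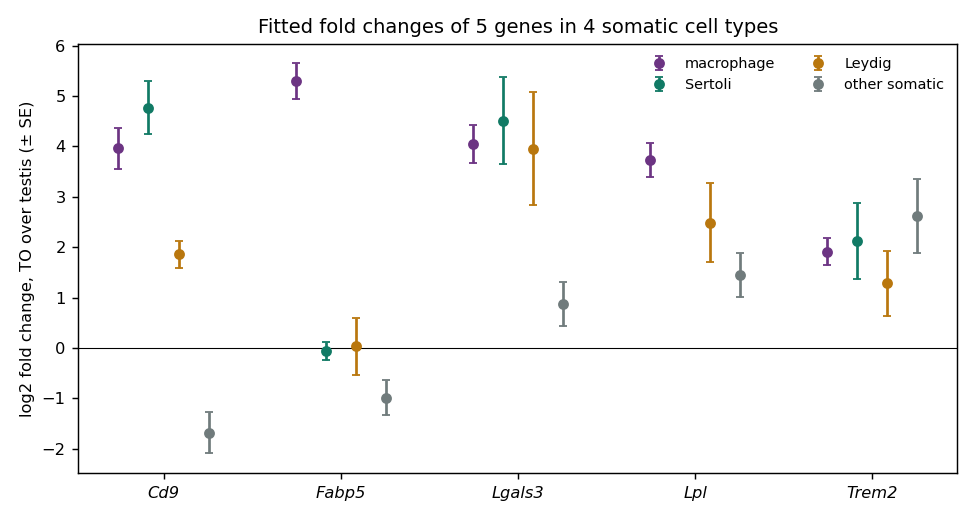
Fitted log2 fold changes (TO over testis, bars are ± SE) of 5 genes in macrophages, Sertoli cells, Leydig cells and other somatic cells, from a fit of 4 library sums per type. *Fabp5* lies far from 0 in macrophages alone, and *Cd9* lies below 0 in other somatic cells. *Lpl* in Sertoli cells is left out because it had no testis UMI. Other points passed the count filter through TOs alone and are not firm sizes. These are *Cd9*, *Lgals3* and *Trem2* in Sertoli cells (6, 1 and 5 testis UMIs), *Lpl* and *Lgals3* in Leydig cells (3 and 2), and *Trem2* in other somatic cells (3).

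*Spp1* was also found outside macrophages in TO 1. Other somatic cells held it at 219 CPM in TO 1 against 4.09 CPM in TO 2 and 0 and 6.57 CPM in testes. Of the 5077 UMIs in TO 1, 3268 came from 63 cells of 1 cluster, led by the genes *Rgs5*, *Tagln* and *Mustn1*, and 3 of these cells held 1502, 741 and 679 UMIs without a UMI of any macrophage marker. Without that cluster the level was 79.5 CPM. Fibroblast-led and *Acta2*-led clusters of TO 1 were at 72.1 and 88.9 CPM. In Sertoli cells *Spp1* was at 16.1 and 2.71 CPM in TOs and at 31.1 and 4.39 CPM in testes (log2 fold change -0.95, SE 0.89, edgeR adjusted p = 0.425). *St18* was found in spermatogonia, at up to 34.7 CPM in TOs and 18.1 CPM in testes, and in testis spermatids at 16.4 and 13.9 CPM.

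Across 32 sums of cell type and library, the genes outside the set whose log2(CPM + 1) was most like that of *Spp1*, among 11011 genes that reached 50 CPM in at least 1 sum, were *Mmp12* (Pearson's r = 0.83), *Lyz1* (0.81), *Fgf13* (0.80), *Clec4d* (0.78) and *Mpeg1* (0.77). Among the members, r ran from 0.79 for *Gpnmb* to 0.26 for *Cd9*. The sums of a library share its cells' preparation, so these values only describe likeness. In macrophages *Mmp12*, a metalloelastase, was at 567 and 221 CPM in TOs and at 13.9 and 0 CPM in testes, and *Mpeg1*, a pore-forming protein of phagocytes, was at 442 and 554 CPM against 111 and 104 CPM.

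Other genes of the programme were read from lists, and their counts stand beside the shares of all genes called in macrophages, 3.35% higher and 16.3% lower. Of 20 tested genes of lipid uptake, storage and efflux, 4 were called higher in TO macrophages and 1 lower, with a median log2 fold change of 0.47. Among the 15 of these that reached the count threshold in every library, 2 were called higher. *Cd36*, a fatty acid and lipoprotein scavenger receptor, was at 854 and 666 CPM in TOs and at 34.8 and 25.6 CPM in testes (log2 fold change 4.85, SE 0.35, edgeR adjusted p = 3.48e-06). *Lipa*, the lysosomal acid lipase, was at 621 and 616 CPM against 160 and 120 CPM (2.35, SE 0.29), and *Fabp4* (4.37, SE 0.72), with 3 testis UMIs, was called higher but passed the filter through TOs alone. *Pnpla2*, the lipase of lipid droplets, was lower in TOs, at 45.9 and 48.3 CPM against 180 and 114 CPM (-1.43, SE 0.29). The cholesterol exporters *Abca1* (-0.21, SE 0.29) and *Abcg1* (0.05, SE 0.26) were not called, nor were *Apoe* (0.89, SE 0.30) and the droplet coat gene *Plin2* (1.09, SE 0.32).

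Of 22 tested lysosomal genes, 6 were called higher and none lower, with a median of 0.71. *Ctsl*, a cathepsin, was at 1701 and 1155 CPM in TOs and at 316 and 245 CPM in testes (log2 fold change 2.56, SE 0.32, edgeR adjusted p = 8.81e-05). *Cd63* (1.38) and *Mitf* (1.29), the latter a transcription factor of lysosomal genes and of *Gpnmb*, were called too. *Atp6v0d2*, a subunit of the vacuolar proton pump, had 578 UMIs in TO and 2 in testis macrophages, a pooled ratio of 60.1 (exact 95% counting interval 16.6–498), and passed the filter through TOs alone, as 1 of the 6.

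The partners of *Trem2* were not called: of 10 tested genes of TREM2 and ITAM signalling, 0 were called by edgeR, with *Tyrobp* at 2322 and 2164 CPM in TOs and 1403 and 1142 CPM in testes (log2 fold change 1.03, SE 0.27, edgeR adjusted p = 0.0138). Among 7 tested receptors of osteopontin, *Itga9* was called lower (-1.20, SE 0.29, at 49.9 and 51.7 CPM against 109 and 163 CPM) and none higher. *Cd44* (1.11, SE 0.33) and *Itgav* (1.09, SE 0.28) did not pass the threshold.

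In lists of relatives of the members, few genes were called. Of 10 C-type lectin receptors, *Clec4d* (5.27, SE 0.45), which partners with the product of *Clec4e*, and *Clec12a* (1.53, SE 0.31) were called higher and *Mgl2* (-4.48, SE 0.74) lower. *Clec4d* passed the filter through TOs alone and *Mgl2* through testes alone. Among the 8 receptors that reached the count threshold in every library, 1 was called higher and 0 lower. Of 8 tetraspanins, *Cd81* (1.90, SE 0.28) and *Cd63* were called higher. Of 4 tested galectins, *Lgals8* was called lower (-1.49, SE 0.32), and *Lgals1* was at 1544, 951, 1226 and 1044 CPM in the 4 libraries (0.35, SE 0.30). Of 15 tested further genes of lipid-associated macrophages, 8 were called higher and none lower, with a median of 1.11, among them *Mmp12* (5.94, SE 0.74) and the chemokine genes *Ccl3* (2.93, SE 0.46) and *Ccl4* (3.82, SE 0.49), as well as *Ch25h* (2.88, SE 0.52), whose product hydroxylates cholesterol. *Mmp12* and *Itgax*, 2 of the 8, passed the filter through TOs alone and are among the leading genes of sub-cluster 3. *Ccl3*, *Ccl4* and *Ch25h* are among those of sub-cluster 1, which held 31.1% and 23.2% of TO and 0.862% and 0% of testis macrophages. These calls thus do not come from a single sub-cluster. *Cd63*, another of the 8, is the same call as that counted among the lysosomal genes and the tetraspanins, so the lists are not separate. *Cst7*, another known gene of this state, was at 1.01 and 0.895 CPM in TOs and 0 in testes and was too low to test. Of 4 tested genes of macrophage fusion, *Atp6v0d2* alone was called, which is also counted among the lysosomal genes.

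Beside these, 2 of 6 genes of resident tissue macrophages were called lower in TO macrophages and none higher, beside 16.3% of all genes called lower. *F13a1* was at 292 and 101 CPM in TOs against 2139 and 1562 CPM in testes (log2 fold change -3.03, SE 0.45), and *Timd4* was at 4.03 and 0 CPM against at most 121 CPM. *Timd4* passed the filter through testes alone, and among the 3 genes that reached the count threshold in every library 1 was called lower. *Mrc1* was at 1033, 1310, 1546 and 1534 CPM (-0.19, SE 0.27). Of 4 genes of MHC class II, *H2-Ab1* was called lower (-2.91, SE 0.59), and of 2 tested monocyte genes *Ccr2* was called lower (-2.42, SE 0.40), counts too small to set apart from that share.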

How the data were processed

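scRNA-seq was performed by the authors on 2 TO and 2 testis libraries (10x Genomics 3′ kit v3.1, unsorted cells), and the deposited values are unnormalized UMI counts for each barcode, made with Cell Ranger 7.1.0 on mm10 per the submitters' processing notes. The libraries had 106577822 and 119966959 UMIs (TOs) and 77016449 and 74988295 UMIs (testes). The 10 genes, the gene lists and the tests were chosen with earlier results of these data known.

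Scrublet (scanpy 1.11.5) replaced the authors' DoubletFinder, and the top-scored 0.8% per 1000 barcodes were removed. Barcodes needed 1000 to 5000 genes, no more than 20000 UMIs and no more than 10% mitochondrial counts. For clustering, each cell was scaled to 10000 UMIs on a log scale. The 2000 variable genes, without the 10 members, gave 30 principal components, which were joined over libraries by an own version of Harmony and clustered by the Leiden method (leidenalg 0.10.2, 20 neighbours, resolution 1; macrophages again at 0.5). A cluster took the type of the highest marker score, with at least 3 markers in at least 10% of cells, so names can differ from those of the study.

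UMIs were summed per type and library and tested in R 4.3.3 with edgeR 4.0.16 (TMM, filterByExpr, quasi-likelihood F test, without a block except the library in interactions), after a test on simulated data. Adjusted p-values are Benjamini-Hochberg values over all genes of a fit. The authors' Wilcoxon test over cells was not used, because cells are not replicates. Shares are given as a description, because exact permutation tests over these libraries cannot decide a difference. The genes named from a list were the called ones of at least 50 CPM in a condition with the largest changes, at most 4 per list, and genes singled out beyond this rule were chosen after their values were seen. DESeq2 1.42.0 and the other alternatives are described with their effect. *Clec7a* was not analysed here, and some genes of the lists are counted but not reported here by name.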

Additional observations from a re-analysis of the deposited data

Results flagged for a closer look

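For 4 of the 5 tested members that passed the count filter in both conditions, the difference between TOs and testes differed between macrophages and another cell type by the interaction test of edgeR (2 libraries per condition, library as a block). *Fabp5* stood out against all 3 types tested, with interactions of 5.58, 5.26 and 6.67 on the log2 scale against Sertoli, Leydig and other somatic cells. Endothelial and germ cells were not tested, and *Fabp5* was also at higher CPM in TOs in each of them. Against other somatic cells alone, the interactions were 6.03 for *Cd9*, 2.70 for *Lpl* and 3.40 for *Lgals3*, of which *Lgals3* was not called without the library block (adjusted p = 0.0149). That of *Gpnmb* was fitted at 13.5, which depends on the prior count because testis macrophages had no UMI, and is neither a size nor support. *Trem2* was called against none of the 3 types.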

How the results depend on the processing

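Over 20 alternatives, the fitted log2 fold changes of the 5 tested members that passed the filter in both conditions were above 0 in 100 of 100 fits and were called except after subtraction of each library's background. Counts of 6 include *Gpnmb*, whose call is no support. Scaled from spermatid markers, of which TO macrophages held 4 and 15 UMIs in all, it left 0 genes called by edgeR of 7264 (434 at an unadjusted p below 0.05, among them all 6 members, now 0 called), and adjusted p was 0.655 for each, with larger fold changes than before (6.47 for *Fabp5*, 2.30 for *Trem2*). Scaled from the markers of all 7 other types, it left 207 genes, and *Trem2* was at 1.61 (adjusted p = 0.0148). *Gpnmb* could not be fitted where genes high in other cells were left out or where macrophages were set by their own markers.

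The main count of 2122 genes was 1927 by DESeq2, 1262 with sums thinned to the smallest library and 1247 within sub-cluster 0, and ran from 1536 to 2157 with 1 library left out, where a lone library is assumed to vary like the others. The tested members were called 6 of 6 times in each of these. Without testis 1, *Clec4e* had no testis UMI and its fit of 10.5 is no size. With genes of any count, 3 members were above Leydig cells, and without the library block the count above other somatic cells fell from 5 to 3, without *Gpnmb* and *Lgals3*. The median difference in shares of macrophages with a UMI was 28.1 percentage points, and 43.0 without thinning. This median is taken over all 10 members, with *Lyz2* and the genes whose levels chose the set among them, and is a description. With the replicate number as a replicate block, 2696 genes and 6 of 6 members were called. Same-numbered libraries share only a number (correlation of deviations 0.104). With 2 libraries per condition, both pairs must give the same correlation, so this is 1 value. With 2 libraries per condition and 148 to 695 macrophages per library, differences in shares cannot reach p below 0.33.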
